A study of Rattus norvegicus with 15 samples.

Results

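Transcripts of voltage-gated sodium and calcium channels, chloride channels, transient receptor potential (TRP) channels, acid-sensing channels and hyperpolarization-activated HCN channels were measured in olfactory epithelium, the tissue at the back of the nose whose neurons detect odorants. Members were all array probes, controls aside, whose gene name began with the root of one of these families (Scn, Cacn, Clcn, Clca, Hcn, Trpa, Trpc, Trpm, Trpv, Best, Asic or the older Accn), with Trpm5 set aside. The rule read names and used no measured value. It found 114 of 41012 probes, which carried 82 of 35562 gene names. Probes of 2 names were no channel genes: the accession of Best5 is Rsad2 in RefSeq, which encodes the interferon-induced protein viperin, and Trpc4ap encodes a protein that associates with TRPC4. The other 111 probes named 80 channel genes, and no probe was named Best1, Best2 or Trpm7. Several names on the array are old. In RefSeq the accessions of Accn1, Accn2, Accn3 and Accn4 are Asic2, Asic1, Asic3 and Asic4, that of Scn2a1 is Scn2a, and that of Clca2 is Clca5. Channel names are printed here as the array gives them.

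The tissue came from 8 Brown Norway rats aged 6 weeks, males 1, 2, 5 and 6 and females 3, 4, 7 and 8, none of which had been exposed to a chosen odorant. Nostrils A and B were measured apart, except that male 1 gave nostril A alone, for 15 arrays in all. The study bought the rats from 2 suppliers, and the labels say neither which supplier a rat came from nor which nostril was left. For low RNA integrity the study dropped the left sample of 1 male from the supplier Elevage Janvier. Male 1 is the only rat here with 1 array. The arrays lay on 4 slides: the 3 arrays of males 1 and 2 shared slide 1 with array A of female 3, array B of that rat shared slide 2 with female 4, males 5 and 6 were on slide 3 and females 7 and 8 on slide 4. The level of a probe is log2 of its processed signal over the median of its array, with a floor at -3.32. Values at the floor have no order, and the levels of different probes are not compared, since each probe binds its target with its own strength. Because whole tissue was measured, fewer cells of a type and less RNA per cell cannot be told apart.

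An odorant opens a cyclic nucleotide-gated channel in the cilia of an olfactory neuron, and the calcium that enters opens chloride channels, which add to the depolarization. Voltage-gated sodium channels at the axon then turn the receptor potential into spikes, and calcium channels at the axon terminal start transmitter release in the olfactory bulb. HCN channels carry a cation current that opens on hyperpolarization. TRP channels serve sensing elsewhere: Trpv1, Trpa1 and Trpm8 report heat, irritants and cold in trigeminal fibers, and Trpc2 is the transduction channel of the vomeronasal organ, the pheromone organ of the nasal septum.

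The tissue label held against its markers. All 11 probes of 8 mature olfactory neuron genes (Omp, Adcy3, Gnal, Cnga2 and others), all 5 of immature neurons and all 3 found for sustentacular cells were well above background on at least 11 arrays. The mean level of the mature neuron list ran from 5.62 to 5.78 over the male rats and from 5.67 to 5.90 over the females. Blood genes differed widely between rats, with means of the Hbb and Alas2 probes from 5.46 to 9.41, and skeletal muscle genes stood out on single arrays, with Ckm at 2.90 in nostril A of female 7 and 0.91 in nostril A of male 6 and not well above background on any other array. Array medians ran from 57.4 to 83.4 intensity units.

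Detection divided the channel families. Probes well above background on at least 11 arrays were called expressed, on 1 to 10 arrays weakly expressed and on none not expressed. Among the 114 member probes, 65 (57%) fell in the expressed class, 24 (21.1%) in the weak class and 25 (21.9%) in the last, against 65.1%, 11.1% and 23.8% of all probes on the array. By gene name, 50 were expressed through at least 1 probe, 16 were weakly expressed and 16 were not well above background through any probe. A gene said below to be on an array was well above background there. A call of not expressed is a limit of these probes and of this strict criterion: the dimmest signals well above background lay between -2.96 and -2.08, depending on the array.

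**Figure D1:**
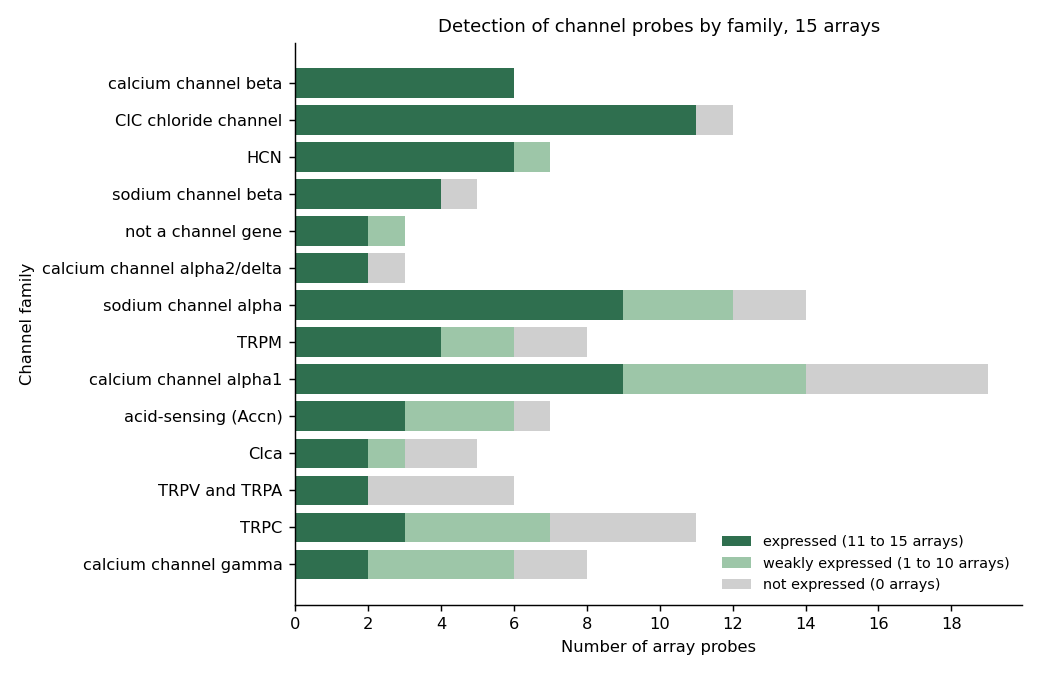
Number of probes in each detection class (horizontal axis) for each channel family (vertical axis) over 15 arrays. All 6 calcium channel beta probes and 11 of 12 ClC probes were expressed, against 2 of 8 calcium channel gamma and 3 of 11 TRPC probes.

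Sodium channel alpha subunit probes were expressed at close to the share of the whole array. Of 14 probes for these pore-forming subunits, 9 were expressed (64.3%, against 65.1% of all probes), 3 weakly and 2 not at all. Scn9a encodes Nav1.7, the channel known for pain fibers and for olfactory neurons, and its probe A_44_P386383 had a median of 6.83 and a lowest level of 6.35. Its second probe ran from 2.21 to 3.00. Alpha subunits found on all 15 arrays also included Scn2a1 (3 probes), Scn3a (median 2.39), Scn7a and 1 of 2 probes of Scn8a. Among the beta subunits, which anchor and tune the alpha subunits, Scn3b and Scn4b were expressed and Scn2b was well above background on 0 arrays. The Scn3b probe was saturated on none of the arrays and ran from 9.66 to 10.41. Scn10a and Scn11a, channels of pain neurons, were weakly expressed, on 2 and 3 arrays. Scn4a, the alpha subunit of skeletal muscle, was well above background on none.

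Of the channels known from skeletal muscle, 3 were not well above background even on arrays that carried muscle transcripts. Scn4a, the muscle chloride channel Clcn1 and the muscle calcium channel subunit Cacng1 were on 0 of 15 arrays, including the arrays of male 6 and female 7 that carried Ckm. Cacna1s, the voltage sensor of skeletal muscle, gave a divided answer: probe A_44_P472106 was expressed on all 15 arrays, between -1.37 and -0.30, and probe A_44_P255177 on none.

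Of 19 probes for calcium channel alpha1 subunits, 9 were expressed. Cacna1b, the N-type channel of axon terminals, was expressed through both probes, and A_42_P787410 ran from 6.09 to 6.66. Cacna1d, an L-type channel, was expressed through all 3 probes, A_44_P365462 with a median of 4.93. The low-threshold T-type channel Cacna1h had a median of 3.91 and Cacna1g of 0.27. Cacna1a, the P/Q-type channel, was on 7 arrays, and the 4 probes of the R-type channel Cacna1e were on 0 to 3. The auxiliary beta subunits, which bring the pore to the membrane, were expressed through all 6 probes of Cacnb1, Cacnb2, Cacnb3 and Cacnb4, with Cacnb3 between 9.41 and 9.95. Among the 3 alpha2/delta genes, whose products raise the number of channels at the membrane, Cacna2d1 ran from 8.20 to 8.47, Cacna2d3 was on 11 arrays and Cacna2d2 was not well above background. Of the 8 gamma subunit genes, Cacng2 and Cacng6 were expressed, 4 were weak and Cacng1 and Cacng5 were not well above background.

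Of 7 probes of the HCN family 6 were expressed. The Hcn2 probe A_44_P911768 ran from 7.52 to 8.14 and the Hcn3 probe A_43_P15414 from 0.68 to 1.14. Hcn4, the pacemaker form, was expressed through 1 probe, between -1.60 and -0.88, and weakly through the other, on 6 arrays.

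Chloride channel families differed. Among the ClC genes, which encode plasma membrane channels and chloride exchangers of endosomes and lysosomes, 11 of 12 probes were expressed, all on 15 arrays, and Clcn1 was the exception. Clcn3 had a median of 4.01, Clcn2 of 1.35 and the lysosomal Clcn7 of 0.16. The Clca genes encode secreted or membrane-bound proteins of mucous epithelia that modulate chloride currents. Of their 5 probes 2 were expressed, and Clca3 was well above background on 5 arrays, at -0.51 in nostril B of male 2 and at the floor in 7.

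TRP channels of sensory fibers did not reach the strict criterion. Trpv1, Trpa1 and Trpm8, and the calcium-uptake channels Trpv5 and Trpv6, were well above background on 0 of 15 arrays. By the looser criterion of a positive and significant signal, Trpv1 was found on 15 arrays, Trpm8 on 7, Trpv6 on 2, Trpa1 on 1 and Trpv5 on 0. The stretch- and osmolarity-sensitive channels Trpv2 and Trpv4 were well above background on all 15, with medians of 3.73 and 3.39. Trpm4, a sodium channel opened by calcium, had a median of 3.60, and the magnesium channel Trpm6 of 2.32. Trpm2 was expressed as well. Trpc1 ran from 4.99 to 5.49. Trpc5 and Trpc6 were not well above background, with a positive and significant signal on 1 and 11 arrays, and both probes of Trpc7 were weak. Of the acid-sensing channels, Accn1 was on 12 arrays and Accn2 on 15 through 2 of its 3 probes, while Accn3, the form of pain fibers, was on none.

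In 13 genes the probes fell in different classes. For Cacna1c, Cacna1s, Clca2 and Scn8a, 1 probe was expressed and another well above background on 0 arrays. Of the 10 genes whose probes could be ordered on build rn3, the array's genome, the probe nearest the 3′ end held the highest class in 5 and a lower one in 5. The probes of Clca2 lie 358 bases apart on chromosome 2. Their opening 30 of 60 bases are shown because the pair gave opposite calls, 15 arrays against 0; the array annotation does not say which exon or untranslated stretch they fall in.
Clca2 A_44_P311364, chr2:242902727-242902786, minus strand, expressed: attcaaaccagcaagttttaaaatagaaaa
Clca2 A_44_P393411, chr2:242902369-242902428, minus strand, not expressed: aagtaacaccaattcttctgctgtatgtaa
The expressed probe is the one farther from the 3′ end.

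Neighbors in the genome did not always share a class. In the sodium channel cluster on chromosome 3 (chr3:47392644-48530115, rn3, 1.14 Mb), 7 of 8 probes of Scn3a, Scn2a1, Scn1a, Scn9a and Scn7a were expressed and Scn1a was weak. The adjacent Trpv5 and Trpv6 on chromosome 4 were both not well above background, as were 2 of 3 probes of the Cacng1, Cacng4 and Cacng5 cluster on chromosome 10.

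Rats of 1 sex were compared next, to ask which channels varied between animals by more than between the nostrils of 1 animal (limma's moderated F over the contrasts among males and among females, 15 arrays, Benjamini-Hochberg adjustment over 27574 probes). Of 71 tested member probes 7 passed 1%, or 9.86%, against 2.79% of all probes, and 18 passed 5%, against 16.1%. The 7 included Scn3b, Scn3a, Scn2a1, Scn4b, Trpc2 and Best5 (Rsad2). Sodium channel probes made up 4 of the 7, and of the 14 sodium channel probes tested 10 passed 5%, against 8 of the other 57 members. The sodium channels were grouped in this way after their values were seen, and the grouping is a description. No sodium channel probe passed 1% with normexp background correction (F from 1.42 to 4.68 for the 4), with the deposited ratio table (11.6 to 16.7) or without the variance trend (11.2 to 16.0).

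Scn3b (A_42_P779282, chr8:43262696-43262755, rn3), a beta subunit, was at 10.21 in male 1, 10.04 and 10.03 in nostrils A and B of male 2, 9.74 and 9.78 in male 5 and 9.82 and 9.89 in male 6. Females 3 and 4 had 10.41 and 10.32, and 10.11 and 10.29, females 7 and 8 had 9.87 and 9.94, and 9.66 and 9.80. Every array of rats 1 to 4 lay above every array of rats 5 to 8, in both sexes (F = 20.8, adjusted p = 0.00342 by limma, within-rat SD 0.07).

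Scn3a (A_42_P623783, chr3:47392644-47392703), which encodes Nav1.3, was at 3.15 in male 1, 2.73 and 2.79 in male 2, 2.27 and 2.35 in male 5 and 2.36 and 2.18 in male 6. Female 3 had 2.71 and 2.78, female 4 had 2.65 and 3.00, female 7 had 2.37 and 2.29 and female 8 had 2.24 and 2.39. The rat means were 2.74 to 3.15 in rats 1 to 4 and 2.27 to 2.33 in rats 5 to 8, and did not overlap (F = 15.1, adjusted p = 0.00736 by limma).

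Scn2a1 encodes Nav1.2, and its probe A_44_P100365 (chr3:47616658-47616717) was at 1.76 in male 1, 1.54 and 1.57 in male 2, 1.61 and 1.64 in female 3 and 1.73 and 1.63 in female 4. Male 5 had 0.97 and 1.23, male 6 had 1.24 and 1.13, female 7 had 1.15 and 1.14 and female 8 had 1.35 and 1.48. The same rats were high, with no overlap between the rat means of rats 1 to 4 and 5 to 8 (F = 13.6, adjusted p = 0.00930 by limma). Of the 2 other Scn2a1 probes, A_44_P121187 also had rats 1 to 4 (1.17 to 1.37) above rats 5 to 8 (lowest 0.97), with no overlap, and A_42_P529319 did not.

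Scn4b (A_42_P674843, chr8:48115253-48115312), another beta subunit, was at 8.33 in male 1, 8.14 and 8.14 in male 2, 8.15 and 8.15 in male 5 and 8.03 and 8.12 in male 6. Female 3 had 8.51 and 8.49, female 4 had 8.10 and 8.39, female 7 had 8.04 and 8.11 and female 8 had 7.62 and 7.81. Here female 8 stood lowest and female 3 highest, and the rats of the slide pairs overlapped (F = 13.7, adjusted p = 0.00914 by limma).

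Scn3a and Scn2a are neighbors on chromosome 3 that point away from each other, with start sites 44.8 kb apart on build GRCr8. The 250 bases before each start site, from RefSeq, are shown because these neighbors were among the probes with rats 1 to 4 high.
Scn3a promoter, chr3:70666199-70666448, GRCr8, minus strand: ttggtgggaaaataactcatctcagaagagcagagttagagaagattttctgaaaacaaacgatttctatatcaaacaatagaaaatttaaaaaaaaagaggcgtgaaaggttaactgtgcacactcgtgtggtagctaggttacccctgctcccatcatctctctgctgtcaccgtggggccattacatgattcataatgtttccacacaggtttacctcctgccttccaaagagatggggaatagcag
Scn2a promoter, chr3:70710706-70710955, GRCr8, plus strand: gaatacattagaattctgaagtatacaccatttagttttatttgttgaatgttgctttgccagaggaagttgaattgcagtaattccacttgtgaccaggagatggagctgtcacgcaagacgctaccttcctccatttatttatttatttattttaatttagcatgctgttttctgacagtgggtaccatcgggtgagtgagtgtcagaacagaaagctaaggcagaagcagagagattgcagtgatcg
RefSeq promoters were also found for Scn4b and Trpc2. None of these 4 held CCCNNGGG, the core of the Olf/Ebf site, TTCAGCAC, the left part of the RE1 site, TATAAA or the GC box GGGCGG on either strand, so no base is in capitals. Over all 33469 promoters of this length the shares were 10.8%, 0.855%, 12.9% and 30.5%, and over 68 member promoters 11.8%, 4.41%, 8.82% and 35.3%. CCCNNGGG and GGGCGG can share bases.

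Slides divide the rats in the same way, since rats 1 to 4 lay on slides 1 and 2 and rats 5 to 8 on slides 3 and 4. Over all tested members, 5 had rat means of rats 1 to 4 wholly above rats 5 to 8, or 7.04%, against 4.61% of all probes, and 6 the opposite, or 8.45%, against 6.75%. Among the opposite were Trpm4 (3.41 to 3.53 against 3.65 to 4.02) and the Accn2 probe A_44_P109573 (0.38 to 0.55 against 0.74 to 0.81). Array medians were 68.1 to 83.4 intensity units on slides 1 and 2 and 57.4 to 74.2 on slides 3 and 4, and their part in the differences was not tested. With slide as a block, so that only rats sharing a slide were compared, 0 of 71 members and 0.00363% of all probes passed 1%, with 15 members, or 21.1%, at an unadjusted p under 0.05 against 17.1% of all probes, and of the members Trpc2 alone passed 5% (adjusted p = 0.0185 by limma). For Scn2a1, Scn3a and Scn3b, the difference between rats and the difference between slide pairs cannot be told apart. The labels do not say whether the supplier divides the rats in the same way. When each rat was left out in turn, Scn3b was lost without female 3 or female 8 (adjusted p up to 0.0175 by limma), Scn3a passed only without female 3 or female 4 (up to 0.0199), Scn4b only without male 1 or female 4 (up to 0.0693) and Scn2a1 in no fit (up to 0.0401).

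**Figure D2:**
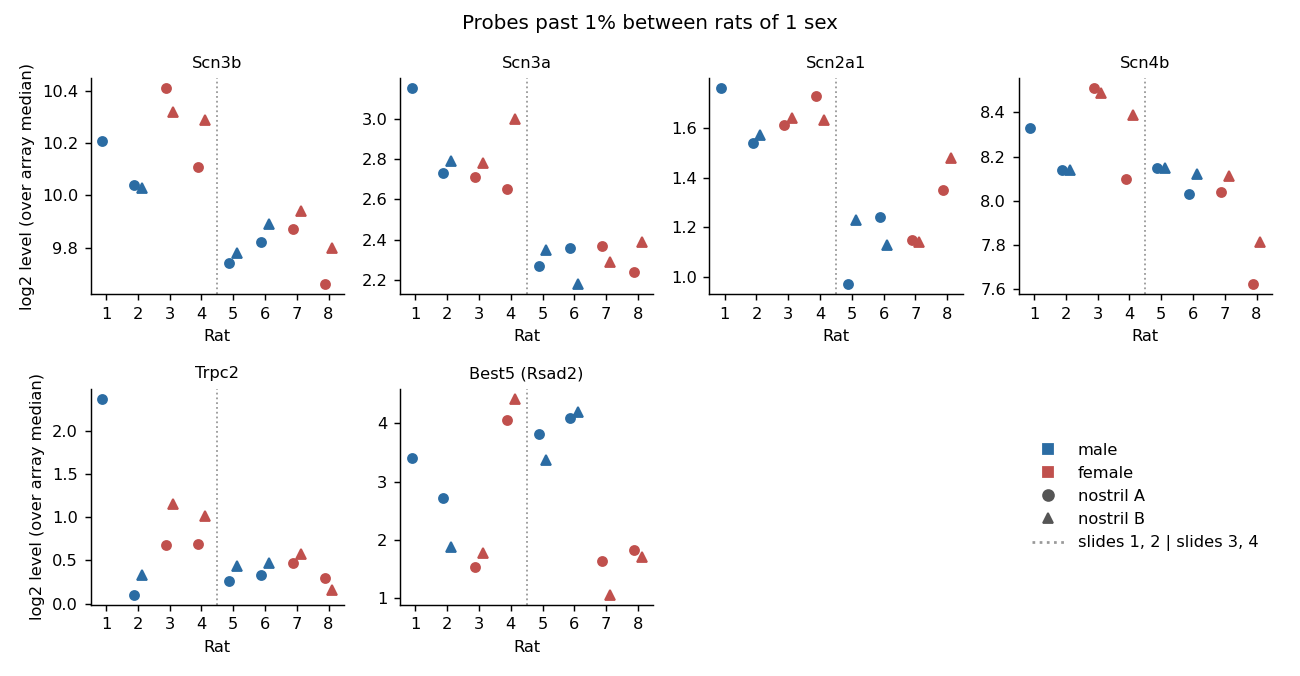
Levels (log2 over the array median, vertical axes that differ by panel and do not start at 0) of 6 probes past 1% between rats, by rat; circles are nostril A, triangles nostril B, blue males, red females, and the dotted line parts slides 1 and 2 from slides 3 and 4. Scn3b, Scn3a and Scn2a1 were higher in rats 1 to 4, and Trpc2 was highest in male 1 at 2.37.

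Trpc2 was set apart by 1 rat. Its probe A_44_P462361 (chr1:159655881-159655940) had levels of 2.37 in male 1, 0.10 and 0.33 in male 2, 0.26 and 0.43 in male 5 and 0.33 and 0.47 in male 6. Female 3 had 0.68 and 1.15, female 4 had 0.69 and 1.02, female 7 had 0.47 and 0.57 and female 8 had 0.30 and 0.16. Male 1 was thus 1.22 above the next array on the log2 scale, or 2.33-fold (F = 25.2, adjusted p = 0.00225 by limma). Male 1 gave 1 array, so its own spread between nostrils was not measured. Without male 1 the adjusted p was 0.0837 by limma. The other Trpc2 probe was well above background on 6 arrays, and its highest levels were -0.91 in nostril A of female 4 and -1.19 in male 1. The opening 30 bases of both probes are shown because only the former places male 1 above every other array.
Trpc2 A_44_P462361, chr1:159655881-159655940, plus strand, expressed: catcaggtacagaggttacaatgtatgact
Trpc2 A_44_P245539, chr1:159652585-159652644, plus strand, weakly expressed: catgtacggcatctttaccatcgtcatggt
Exon and untranslated region are not given by the array annotation.

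Vomeronasal receptor probes were also highest in male 1. Of 88 probes described on the array as vomeronasal or pheromone receptors, 16 were well above background in male 1 and 3 to 9 on each other array, and their mean level was -2.73 in male 1 and lower on every other array, down to -3.17 in nostril B of female 3, the array with the next highest Trpc2 level. Among them A_44_P655651, described as a V2r2 protein, stood at 3.50 in male 1, and the means of the other rats lay between -1.31 and -0.61. The list was drawn up by description after these values were seen, because the 5 vomeronasal names listed earlier matched no probe, and none of the 9 probes named V1r or V2r was well above background. The part of vomeronasal tissue in the Trpc2 level was not tested.

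Single probes of other channels peaked in male 1 as well. Cacna2d3, an alpha2/delta subunit, had the second largest range over rats among the members, 4.86-fold. Its levels were -0.09 in male 1, -2.23 and -1.90 in male 2, -2.49 and -1.98 in male 5 and -1.25 and -2.42 in male 6. The females ran from -3.17 in nostril A of female 7 to -1.25 in nostril A of female 8, with a median over the 4 rats of -1.88. Nostrils of 1 rat differed by up to 1.59 for this probe, and it did not pass 5% between rats (adjusted p = 0.255 by limma). The Accn2 probe A_43_P12408 was at -0.75 in male 1 and at most -1.29 elsewhere. Another Accn2 probe, A_44_P109573, on all 15 arrays, had rat means of rats 1 to 4 below those of rats 5 to 8, as given above. The Cacna1i probe A_44_P405083, well above background on 3 arrays, was at -1.42 in male 1 and at most -2.72 elsewhere. The other Cacna1i probe, A_44_P405084, lies 24 bases away and was well above background on 0 arrays. In all 3 members, Trpc2, Cacna2d3 and Cacna1i, male 1 exceeded every other array by over 1 on the log2 scale, as it did in 10 of the 88 vomeronasal receptor probes and in 125 probes of the whole array. The Cacna2d3 probe is shown whole because it spans 9545 bases of build rn3, far more than its own 60, as a probe across a splice junction does.
Cacna2d3 A_44_P257326, chr16:4238453-4247997, minus strand: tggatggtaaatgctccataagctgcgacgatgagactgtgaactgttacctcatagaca

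**Figure D3:**
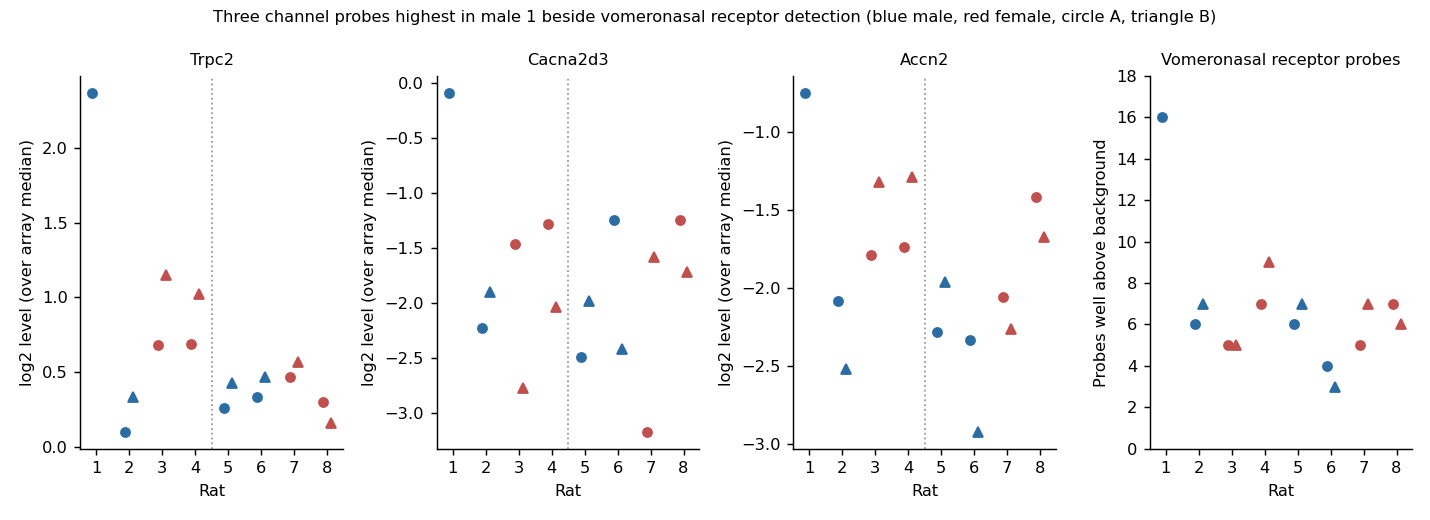
Levels of Trpc2, Cacna2d3 and the Accn2 probe A_43_P12408 by rat (log2 over the array median, axes not starting at 0). At the right is the number of 88 vomeronasal receptor probes well above background, by rat. Males are blue, females red, circles nostril A and triangles nostril B, with a dotted line between slides 1, 2 and slides 3, 4. Male 1 had 16 receptor probes well above background and every other array 3 to 9.

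Best5, the array's name for Rsad2, had the largest range of all tested members, 7.45-fold over rat means, through 1 of its 2 probes. The other, A_44_P370190, was well above background on 2 arrays and was not tested. The probe A_44_P196172 (chr6:44104230-44104289) stood at 3.40 in male 1, 2.71 and 1.87 in male 2, 3.82 and 3.37 in male 5 and 4.09 and 4.20 in male 6. Female 3 had 1.53 and 1.77, female 4 had 4.06 and 4.42, female 7 had 1.63 and 1.05 and female 8 had 1.83 and 1.70. Rats of 1 sex differed (F = 32.1, adjusted p = 0.00126 by limma). Rats 1, 4, 5 and 6 were high and rats 2, 3, 7 and 8 low, a split read from these same values and not tested. Alas2, a gene of red cell precursors, was at 8.51 to 9.69 in the former 4 rats and 5.08 to 6.37 in the latter. Its part in the Best5 level was not tested. Without female 4 the adjusted p for Best5 was 0.0246.

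The sexes were compared over 4 males and 4 females, with the nostrils of a rat averaged. No member passed 1% or 5%, where 0.0434% of all probes passed 1%. At an unadjusted p under 0.05 there were 10 of 71 members, or 14.1%, against 17.1% of all probes, and 8 of the 10 were higher in females, as were 71.4% of all probes at that p. The median female minus male difference was -0.04 over the members and 0.01 over all probes. Rat means of all females lay above all males for 6 members, or 8.45% against 8.82% of all probes, and the opposite held for 0 members against 2.52%.

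**Figure D4:**
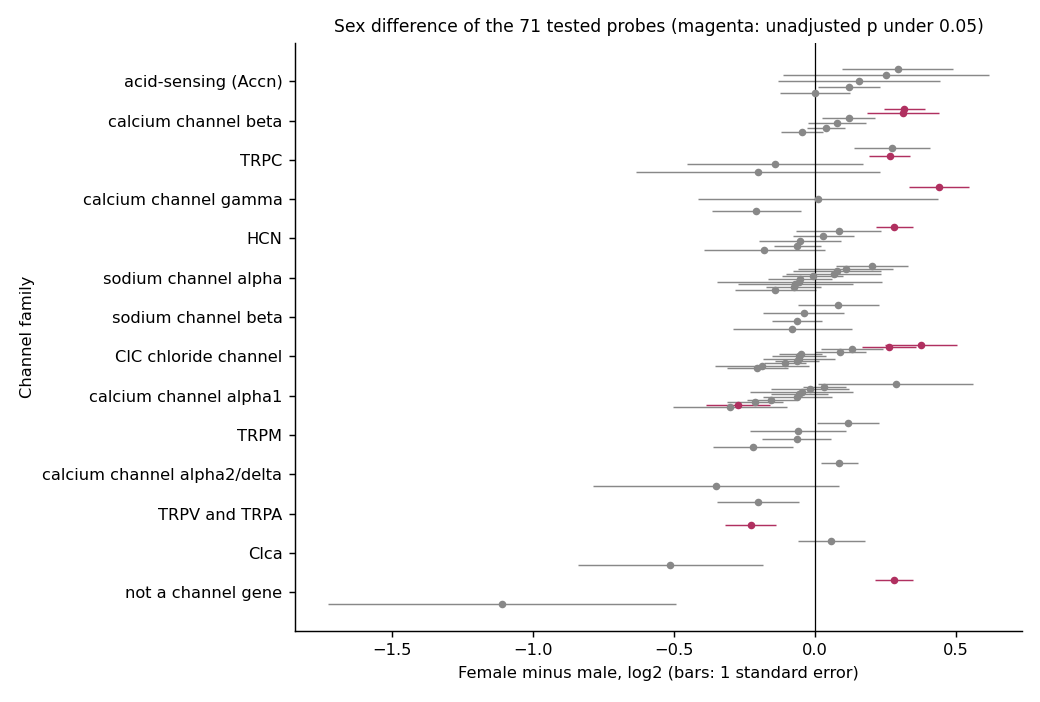
Female minus male difference on the log2 scale (horizontal axis, bars 1 standard error) for each of the 71 tested probes, by family (vertical axis). The 10 magenta points had an unadjusted p under 0.05, and none passed 5% after adjustment.

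The 5 members with the smallest p were all higher in females by 1.20 to 1.36 times and shared adjusted p-values of 0.109 to 0.131 by limma. Cacnb2 (A_42_P525317) was at 5.04, 5.07, 5.18 and 5.28 in males 2, 1, 5 and 6 and at 5.43, 5.59, 5.45 and 5.39 in females 3, 4, 7 and 8, which did not overlap. The means were 5.14 ± 0.11 and 5.46 ± 0.09 (SD, n = 4 rats each), a difference of 0.32 (SE 0.07, adjusted p = 0.109 by limma). The cation channel Hcn2 (A_43_P15654) was at 2.52 to 2.62 in males and 2.76 to 2.92 in females, means 2.57 ± 0.05 and 2.86 ± 0.08 (SD, n = 4 each), also without overlap. Its other probe did not pass an unadjusted 0.05, whereas the other Cacnb2 probe did, at a difference of 0.31. Trpc1 was at 5.00 to 5.31 in males and 5.38 to 5.44 in females, and Trpc4ap at 2.34 to 2.53 and 2.64 to 2.77.

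Cacng2, a gamma subunit known as stargazin that carries AMPA receptors to synapses, was at 0.36 to 0.71 in males and 0.85 to 1.17 in females, a difference of 0.44 (SE 0.11, adjusted p = 0.109 by limma). Clcn2, a chloride channel of epithelia and neurons, was at 1.02 to 1.37 in males and 1.27 to 1.84 in females, which overlap (difference 0.38, SE 0.13, adjusted p = 0.187 by limma). Both probes are shown because each spans more of the genome than its 60 bases, 107327 and 268 on build rn3, as a probe across a splice junction does.
Cacng2 A_42_P838347, chr7:115964578-116071904, minus strand: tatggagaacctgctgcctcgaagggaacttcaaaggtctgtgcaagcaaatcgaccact
Clcn2 A_43_P11833, chr11:82493946-82494213, plus strand: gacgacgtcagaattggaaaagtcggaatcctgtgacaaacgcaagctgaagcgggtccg
The mean of the 3 sustentacular probes also lay higher in females, at 9.39 to 9.61 in males and 9.65 to 9.84 in females, and its part in these differences was not tested.

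How the arrays are counted changed the sex calls. With the 15 arrays taken as independent, 4 members passed 1%: Cacnb2, Hcn2, Trpc1 and Trpc4ap (adjusted p = 0.00330 to 0.00764 by limma), or 5.63%, against 3.74% of all probes. With slide as a block, only slide 1 holds both sexes, with nostril A of female 3 against males 1 and 2, and 1 member passed, or 1.41% against 1.70% of all probes. It was the sodium channel Scn8a (difference 0.80, adjusted p = 0.00630), whose difference over all rats was 0.11 (adjusted p = 0.774 by limma). On slide 1 Scn8a was at 1.60 in female 3 and at 0.64 to 1.05 in the males, Cacng2 at 1.31 against 0.33 to 0.74 and Hcn2 at 2.93 against 2.44 to 2.65. Cacnb2 was at 5.27 against 4.97 to 5.12, Trpc1 at 5.38 against 5.15 to 5.31 and Trpc4ap at 2.59 against 2.46 to 2.60. With slide as a block the difference of Cacng2 was 0.87 (adjusted p = 0.168 by limma), against 0.44 over all rats, and that of Hcn2 0.39 against 0.28. The differences of Cacnb2, Trpc1 and Trpc4ap were 0.22, 0.12 and 0.08, against 0.32, 0.27 and 0.28 over all rats.

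Nostrils were compared within the 7 rats that gave both, with the rat as a block. No probe of the array passed 1% (0%), and at an unadjusted p under 0.05 there were 4 members, or 5.63%, against 5.89% of all probes. They were Trpm6 (B minus A 0.16), Cacna1s (-0.30), Accn4 (-0.48) and Trpc2 (0.18), each with an adjusted p of 0.781 by limma. With another background correction (normexp) the differences were 0.06, -0.07, -0.04 and 0.08, and for Accn4 a floor at 0.2 of the array median gave -0.22. Trpm6 was higher in nostril B in 6 of 7 rats, by -0.04 to 0.37, and Cacna1s was lower in nostril B in all 7, by -0.78 to -0.02.

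The nostril difference was then compared between sexes, 4 females against 3 males, and again 0% of all probes passed 1%. At an unadjusted p under 0.05 there were 2 members, or 2.82%, against 2.37% of all probes. For the expressed Clca2 probe, B minus A was 0.24, 1.40, 0.29 and 0.54 in females 3, 4, 7 and 8 and -0.21, -0.88 and -1.29 in males 2, 5 and 6. Every female was thus higher in nostril B and every male in nostril A, and the difference between the sexes was 1.41 (SE 0.32, unadjusted p = 0.00210, adjusted p = 1.00 by limma). The dimmer Hcn3 probe was the other, at 0.71 (SE 0.26).

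**Figure D5:**
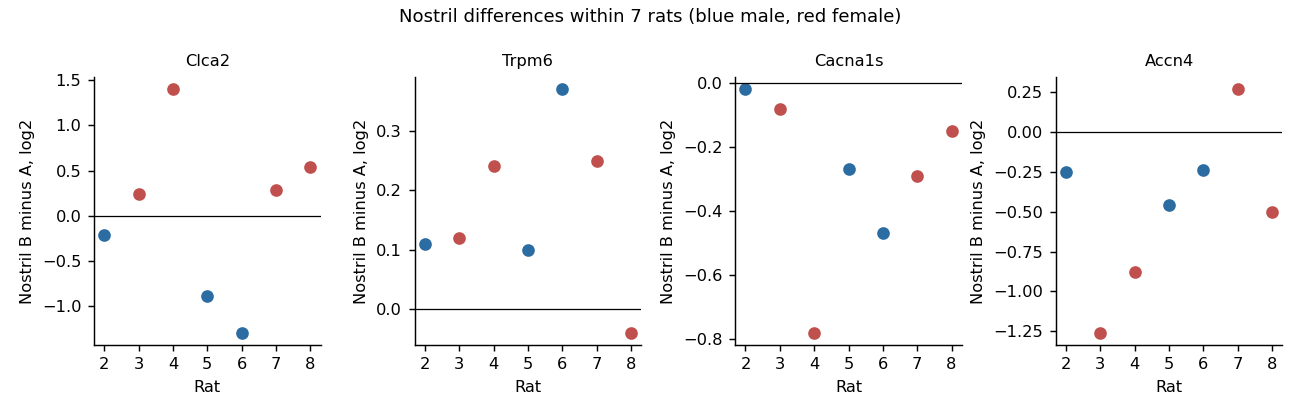
Nostril B minus nostril A on the log2 scale (vertical axes) for Clca2, Trpm6, Cacna1s and Accn4 in the 7 rats with both nostrils (horizontal axis), blue males, red females. Clca2 lay above 0 in the 4 females and below 0 in the 3 males.

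Genes that work with these channels were drawn from a list of 43 names, of which 37 were found on 61 probes: 52 expressed, 5 weakly expressed and 4 not well above background. All 16 probes of odor transduction genes were expressed. None of the 54 tested partner probes passed 1% between sexes or nostrils, and 11 had an unadjusted p under 0.05 between sexes, where 17.1% of all probes did. Between rats 3 of 54 passed 1%, against the 2.79% of all probes given above. Slc12a2 encodes the cotransporter that loads olfactory neurons with chloride, and its probe A_44_P163408 was at 3.31 to 3.61 in rats 1 to 4 and 2.65 to 2.91 in rats 5 to 8 (F = 42.8, adjusted p = 5.43e-04 by limma). Its other probe, A_44_P134405, did not separate these rats. Ank2, an ankyrin that anchors membrane proteins, was at 5.08 to 5.49 and 4.60 to 4.94 through A_44_P549028 (F = 18.8, adjusted p = 0.00430 by limma), and the calcium sensor of vesicle release Syt1 at 2.02 to 2.66 and 1.70 to 1.95 through A_44_P125913 (F = 13.7, adjusted p = 0.00919 by limma). All 3 thus had rats 1 to 4 above rats 5 to 8, the order of the slides, as did 220 of the 768 probes of the whole array past 1%, while 128 had the opposite order.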

How the data were processed

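Total RNA of 15 olfactory epithelium samples was hybridized, labeled with Cy3, to Agilent rat arrays with 4 arrays on a slide. The authors extracted the deposited intensity of each spot with Feature Extraction 9.5.1.1, which removed the local background, and did not scale it between arrays. The ratio table deposited by the authors, each signal over its array median and then over its probe median, served as an alternative. Non-uniform and outlier spots were left out, spots of 1 probe averaged, signals scaled to each array's median, scaled values below 0.1 set to 0.1, and log2 taken. Probes well above background on at least 7 arrays were tested with limma 3.58.1 in R 4.3.3 (lmFit, eBayes with trend), two-sided, with Benjamini-Hochberg adjustment over all probes at a false discovery rate of 1%. The rat was the unit, and the labels number 8 rats, whose nostrils served as the error between rats. The number of arrays limits the precision. The tests were checked on simulated data.

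Members and gene lists were chosen with earlier results of these data known. Named are genes of known roles, every member past 1%, the 5 smallest p of the sex, nostril and between-rat fits, the 3 largest ranges over rats, and genes with an expressed and an undetected probe. Marker lists covered neurons, sustentacular cells, muscle, blood, bone, vomeronasal organ, motile cilia and chemosensory cells: 2 of 3 bone, 3 of 5 chemosensory and 4 of 7 cilia probes were expressed. Alternatives were other scalings, floors, filters and thresholds, other variance and block models, and leaving out each rat. Some members are counted but not reported here by name. Sequences came from the scanner files and RefSeq.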

Additional observations from a re-analysis of the deposited data

Results flagged for a closer look

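Among the 44 probes with named values, the means of 4 rats of 1 sex held a rat set apart from the other 3 in 6 of 88 groups by Dixon's test of the gap over the range. Chance alone sets apart a rat in about 1 of 20 groups that were not chosen by their values. Some of these probes, Trpc2 and Best5 among them, were named for a small p or a large range between rats. The count of 6 therefore cannot be judged against that rate. Trpc2 stood at 2.37 in male 1 against 0.21 to 0.40 in the other males, and Scn9a (A_44_P113806) at 3.00 in male 1 against 2.63 to 2.67. Best5, the array's name for Rsad2, was at 4.24 in female 4 against 1.34 to 1.77 in the other females. The Accn2 probe A_43_P12408 was at -2.16 in female 7 against -1.55 to -1.51. The Cacna1d probe A_44_P365462 was at 4.79 in male 2 against 5.06 to 5.10, and Trpm6 at 2.55 in male 6 against 2.24 to 2.27.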

How the results depend on the processing

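Of 114 member probes 65 were expressed, and other detection rules gave 61 to 90. Between sexes 0 members passed 1%, against 4 with the 15 arrays taken as independent and 1 with slide as a block, and 0 under the other alternatives, the methods' t-test and leaving out each rat included. Between nostrils and for nostril by sex the count was 0 under all alternatives that were run, and without the rat block it stayed at 0. Between rats 7 members passed 1%, against 18 at a false discovery rate of 5%, 10 with quantile normalization, 9 with scaling to the 75th percentile, 6 or 7 with other floors and filters, 2 with normexp background correction, 3 with the deposited ratio table, 3 without the variance trend and 0 with slide as a block, and 3 to 6 when each rat was left out in turn. Of these 8 fits, Best5 and Trpc2 passed 1% in 7, Scn3b in 6 (not without female 3 or female 8, adjusted p = 0.0102 and 0.0175 by limma), Scn3a and Scn4b in 2 and Scn2a1 in 0. The nostril difference of Scn4b (A_42_P674843), 0.09 in the analysis reported, was -0.02 with normexp, which also moved the median nostril by sex difference of all probes from 0.02 to -0.12. The causes were not tested. The nostril fits could not leave out male 1, which gave 1 nostril. No paired analysis between the sexes was possible because each rat belongs to 1 sex and the rat numbers are not shared. Signal over background limits what can be said of the 43 probes not tested.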
